A study of Mus musculus with 4 samples.

Results

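L1Md_F, L1Md_F2, L1Md_F3 and L1Md_Gf are families of young mouse LINE-1 retrotransposons. Their peaks are the regions of the deposited Zeb1 list whose detailed annotation, made for the centre of each peak, gives a LINE-1 element of 1 of these 4 family names. They were 846 of 17435 peaks, or 4.85% of the list and 34.1% of its 2483 LINE-1 peaks. L1Md_F2 held 569 of them, L1Md_F 102, L1Md_Gf 89 and L1Md_F3 86.

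Zeb1 is a zinc finger transcription factor that binds E-box sequences and recruits co-repressors. Its sites were mapped by chromatin immunoprecipitation and sequencing (ChIP-seq) in mouse embryonic stem cells (mESC) of the D3 line, held at passages 5 to 8 in GS, a serum-free medium. GS contained 1 μM PD0325901, an inhibitor of MEK, 3 μM CHIR99021, an inhibitor of GSK-3, and 20 ng/mL LIF, which together hold the cells in naive pluripotency. The labels gave 3 Zeb1 ChIP libraries, made with 8 μg of antibody, and 1 genomic input library, all from chromatin fixed with 1% formaldehyde and sheared to around 200 bp. For each peak the list has the means, as the authors averaged them, of the treatment reads, the input reads and the enrichment, which is the ratio of treatment to input normalized for mapped reads. It holds no value per library, so no value below has an SD, and the spread between the 3 ChIP libraries could not be measured. How many reads of each library were aligned is not given in it. Differences between sets of peaks are therefore descriptions with no test.

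A full LINE-1 element starts with a promoter, which in mouse families is an array of tandem repeats called monomers. The promoter is followed by a first open reading frame, for an RNA-binding protein, and a second, for an endonuclease and reverse transcriptase that copies the RNA back into DNA. Most copies in the genome lost their upstream part when they were inserted, and the families are told apart largely by the sequence of their monomers.

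The monomers are shown first because the highest enrichments lay mostly upstream of frame 1, where 222 of 307 members held a tandem repeat. In L1Md_F and in L1Md_Gf, the upstream peak with the longest tandem run was taken, and 2 neighbouring monomers of it are printed in the sense direction of the element, from GRCm38/mm10. The L1Md_F pair had a period of 204 bp and was identical at 199 of 204 positions (97.5%). The L1Md_Gf pair had a period of 212 bp and was identical at 204 of 212 positions (96.2%). Capitals mark each match to the Zeb1 motif CNCACCTG, CNTACCTG, TNCACCTG or TNTACCTG on either strand. The L1Md_F pair held no match and each L1Md_Gf monomer held 1.
L1Md_F monomer, chr4:12403399-12403602, reverse strand: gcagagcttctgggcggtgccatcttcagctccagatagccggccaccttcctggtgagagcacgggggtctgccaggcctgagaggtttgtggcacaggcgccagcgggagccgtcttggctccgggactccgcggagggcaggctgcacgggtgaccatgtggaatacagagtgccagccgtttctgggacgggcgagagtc
L1Md_F monomer, next copy, chr4:12403195-12403398, reverse strand: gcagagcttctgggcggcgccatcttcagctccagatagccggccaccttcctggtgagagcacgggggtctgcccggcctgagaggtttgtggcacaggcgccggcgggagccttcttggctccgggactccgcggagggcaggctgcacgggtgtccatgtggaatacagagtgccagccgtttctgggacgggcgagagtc
L1Md_Gf monomer, chr14:42586336-42586547, reverse strand: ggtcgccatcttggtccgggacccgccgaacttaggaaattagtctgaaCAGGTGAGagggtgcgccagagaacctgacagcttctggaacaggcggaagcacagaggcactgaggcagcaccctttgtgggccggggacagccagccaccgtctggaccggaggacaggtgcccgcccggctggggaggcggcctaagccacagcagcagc
L1Md_Gf monomer, next copy, chr14:42586124-42586335, reverse strand: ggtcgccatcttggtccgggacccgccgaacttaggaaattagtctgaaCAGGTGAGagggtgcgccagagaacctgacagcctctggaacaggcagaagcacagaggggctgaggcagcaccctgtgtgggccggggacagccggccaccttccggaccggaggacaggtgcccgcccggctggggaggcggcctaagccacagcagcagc

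The member with the highest enrichment was an L1Md_F peak at chr9:114281051-114282500. It held a tandem repeat with a period of 201 bp, and its 300 central bases are given in the sense direction. They contain no match to the full motif, so that no base is in capitals. They do contain CAGGTG, which is CACCTG on the other strand, the core of the motif forms CNCACCTG and TNCACCTG.
Centre of the peak with the highest enrichment, chr9:114281626-114281925, forward strand: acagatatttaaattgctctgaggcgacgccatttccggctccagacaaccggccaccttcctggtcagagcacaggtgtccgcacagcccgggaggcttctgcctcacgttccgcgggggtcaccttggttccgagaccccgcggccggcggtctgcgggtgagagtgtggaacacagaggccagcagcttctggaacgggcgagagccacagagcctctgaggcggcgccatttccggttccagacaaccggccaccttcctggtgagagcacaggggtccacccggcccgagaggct

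Motif matches recurred with their surroundings, and the exact copies of a surrounding lay at about the same place of the element. A match with 11 bases on each side was followed over 815 members, counting versions with up to 6 differences. The 5 surroundings found in the most members are printed in the sense direction with the match in capitals, each followed by where it lay relative to the start of the first frame, as a median over the exact copies.
Within frame 2, chr13:100293241-100293270, forward strand: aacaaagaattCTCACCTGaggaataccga
Within frame 1, late match, chr13:100289267-100289296, forward strand: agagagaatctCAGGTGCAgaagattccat
Upstream of frame 1, chr7:57931192-57931221, reverse strand: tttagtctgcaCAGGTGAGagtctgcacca
Within frame 1, middle match, chr6:13332508-13332537, forward strand: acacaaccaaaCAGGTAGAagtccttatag
Within frame 1, early match, chr15:67501819-67501848, reverse strand: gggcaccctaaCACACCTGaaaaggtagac
The match in frame 2 lay 4405 bp after the start of frame 1 and was found in 132 members, of which 113 were L1Md_F2 peaks and 17 L1Md_F3 peaks. The early match in frame 1 lay at 91 bp and was found in 181 members (22.2%), the most when differences are allowed. Without differences it was found in 43 members, the middle match in 47 and the other 3 in 58 each. The middle match, at 245 bp, was in 130 members and the late match, at 451 bp, in 97. The match upstream of frame 1 lay at -301 bp in its exact copies. With up to 6 differences it was in 144 members, made up of 75 L1Md_Gf, 62 L1Md_F2, 5 L1Md_F and 2 L1Md_F3 peaks. Upstream peaks were 157 of the 181 members with the early match in frame 1 and 89 of the 130 with the middle match. They were 30 of the 97 with the late match and 120 of the 144 with the match upstream of frame 1. Versions with differences need not lie at the place of the exact copies. Both L1Md_Gf monomers printed above hold such a version of the upstream match. A match is a description of letters and not a site. The 31 bases that most upstream L1Md_F peaks shared, in 51 of 75, and those that most upstream L1Md_Gf peaks shared, in 52 of 74, held no match.
Most shared by upstream L1Md_F peaks, chr1:139641889-139641919, forward strand: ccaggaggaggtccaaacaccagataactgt
Most shared by upstream L1Md_Gf peaks, chr6:59200972-59201002, forward strand: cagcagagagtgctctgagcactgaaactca

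Enrichment differed between the families. L1Md_F and L1Md_Gf peaks had median enrichments of 7.94 and 7.8, against 3.5 for L1Md_F2 and 2.86 for L1Md_F3. The quartiles were 4.8 and 11.8 for L1Md_F, 4.6 and 12.6 for L1Md_Gf, 2.66 and 5.38 for L1Md_F2 and 2.55 and 3.39 for L1Md_F3. The quartile ranges of L1Md_F and L1Md_Gf therefore lay close to each other and above that of L1Md_F3. All 4 families reached down to the limit of the list, with lowest values between 2 and 2.1, and the highest values were 55.4 in L1Md_F, 41.8 in L1Md_F2, 39.6 in L1Md_Gf and 8.75 in L1Md_F3. Over all members the median enrichment was 3.75, with quartiles of 2.75 and 6.79, from a median of 32 treatment reads and 16 input reads in a median length of 1350 bp.

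**Figure D1:**
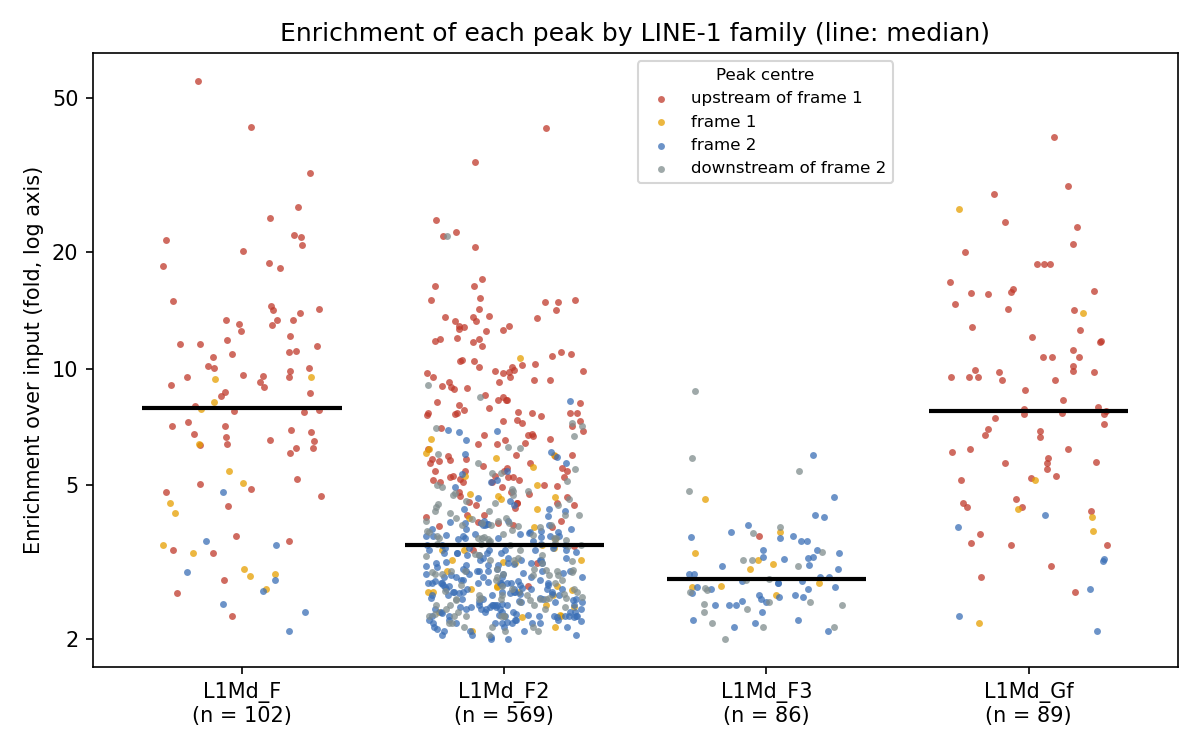
Enrichment over input of each of the 846 peaks, on a log axis, by family, with a line at the median and the colour giving the place of the peak centre in the element. L1Md_F and L1Md_Gf consist mostly of peaks upstream of frame 1, and L1Md_F3 has 1 such peak among 86.

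The families also differed in which part of the element their peaks covered. To read that part, elements with both frames intact were looked for in the windows of 8 kb on each side of the members. The longest second frame had 1281 codons. The first model element, found at chr16:27423110-27431198 in the window of an L1Md_F peak, had 385 codons in its first frame. This single model placed 640 of 846 peaks, but 20 of 89 L1Md_Gf peaks. All 32 elements found, in the windows of 19 L1Md_Gf, 9 L1Md_F2 and 4 L1Md_F peaks, were then used as a panel, a choice made after seeing the data. The element found in a window need not be the copy under the peak, nor of its family. The panel placed all 846 peaks, with a median identity of 93.9%. Within a monomer array a position can be off by whole monomers.

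Peak centres were found in all parts of the element. Of the 846 peaks, 307 lay upstream of frame 1 (36.3%, 95% Wilson interval 33.1 to 39.6%), 75 in frame 1 (8.87%), 298 in frame 2 (35.2%) and 166 downstream of frame 2 (19.6%). The families divided sharply. Upstream of frame 1 lay 75 of 89 L1Md_Gf peaks (84.3%), 78 of 102 L1Md_F peaks (76.5%), 153 of 569 L1Md_F2 peaks (26.9%) and 1 of 86 L1Md_F3 peaks (1.16%). L1Md_F3 peaks sat in frame 2 in 50 cases and downstream of it in 25. Counting frame 1 as well, 382 peaks (45.2%) were centred before frame 2, and with the single model 182 of 640 (28.4%). Relative to the start of frame 1 the upstream centres had a median of -466 bp, with quartiles of -598 and -367 bp.

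Peaks upstream of frame 1 carried nearly all of the high enrichment, a contrast that was chosen after seeing the data. Their median was 8.15, with quartiles of 5.65 and 11.9, against 3 in the 539 other members, with quartiles of 2.55 and 3.75. The ratio of the medians was 2.72, and 1.56 when only peaks with enrichment of at least 5 were taken on either side. The upstream median was the higher of the pair on 20 of 20 chromosomes that had at least 3 peaks of each kind. Of the 113 members with enrichment of at least 10, 109 were centred upstream of frame 1, while 6 of the 274 members with enrichment under 3 were. Within the families the upstream medians were 9.57 in L1Md_F, 9.34 in L1Md_Gf and 7.64 in L1Md_F2, and those of the remaining peaks 3.5, 3.86 and 3. L1Md_F3 had a median of 2.85 in its 85 other peaks and 3.7 in its 1 upstream peak.

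**Figure D2:**
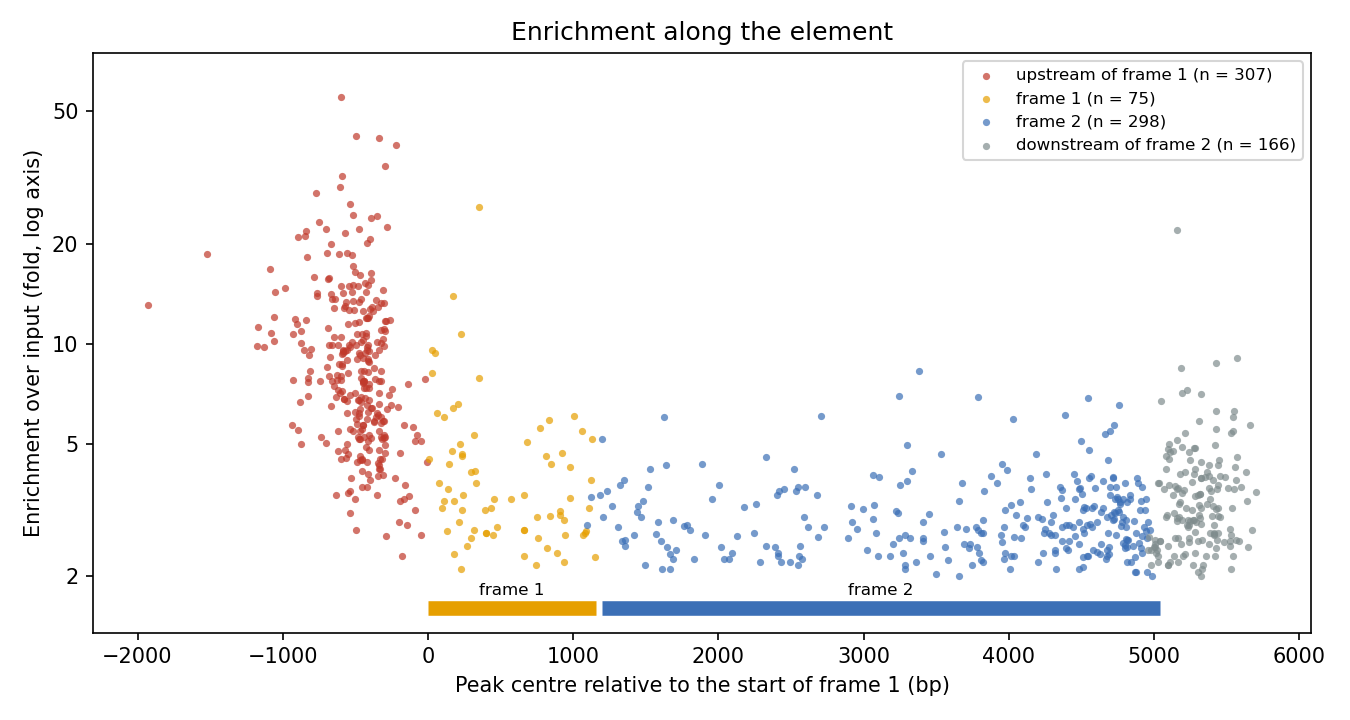
Enrichment over input (log axis) of each peak against the distance of its centre from the start of frame 1, with bars for the frames of the first model. Values above 10 lie upstream of frame 1 except for 4 peaks.

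Of those 4 peaks, 3 are named here after their values were seen, and each of the 3 held a tandem repeat like those of the promoters. An L1Md_Gf peak near Gm15091 on Chr. X (enrichment 25.8) and an L1Md_F2 peak near Vmn2r82 on Chr. 10 (10.7) were centred 349 and 229 bp into frame 1. These peaks were 3000 and 2350 bp long, so that they reached back over the upstream part. An L1Md_F2 peak near Lingo2 on Chr. 4 was placed downstream of frame 2 and had 22 treatment reads and 0 input reads. Its enrichment was given as 22, and that of the other member with 0 input reads, an L1Md_F peak near Bsph1 on Chr. 7 with 32 treatment reads, as 32. These 2 values equal the treatment reads and are not ratios, and they are counted among the enrichments of at least 10.

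The higher enrichment upstream of frame 1 went with fewer input reads more than with more treatment reads. Upstream peaks had a median of 24.8 treatment reads per kb of peak and the other members 21.9, a ratio of 1.13. Input reads were 6.54 and 14.8 per kb, a ratio of 0.44. The input median was lower upstream on each of the 20 chromosomes, and the treatment median was higher on 15. Along the element, input reads per kb had medians of 3.81 more than 1000 bp before frame 1 (10 peaks), 6.67 from 500 to 250 bp before it, 9.49 in its first 250 bp, 16 from 250 to 500 bp after its start, 12.2 from 500 to 1200 bp, 17.4 from 3000 to 4000 bp, which was the highest, and 14.7 and 14.5 in the last 2 bins, which held 160 and 161 peaks. Treatment reads stayed between 18.9 and 26.4 per kb in all 13 bins. Across the 846 peaks, which share libraries and family sequence, Spearman's rho of enrichment was -0.83 with input reads per kb and 0.16 with treatment reads per kb, and enrichment is itself computed from both. What sets the number of input reads was not tested.

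**Figure D3:**
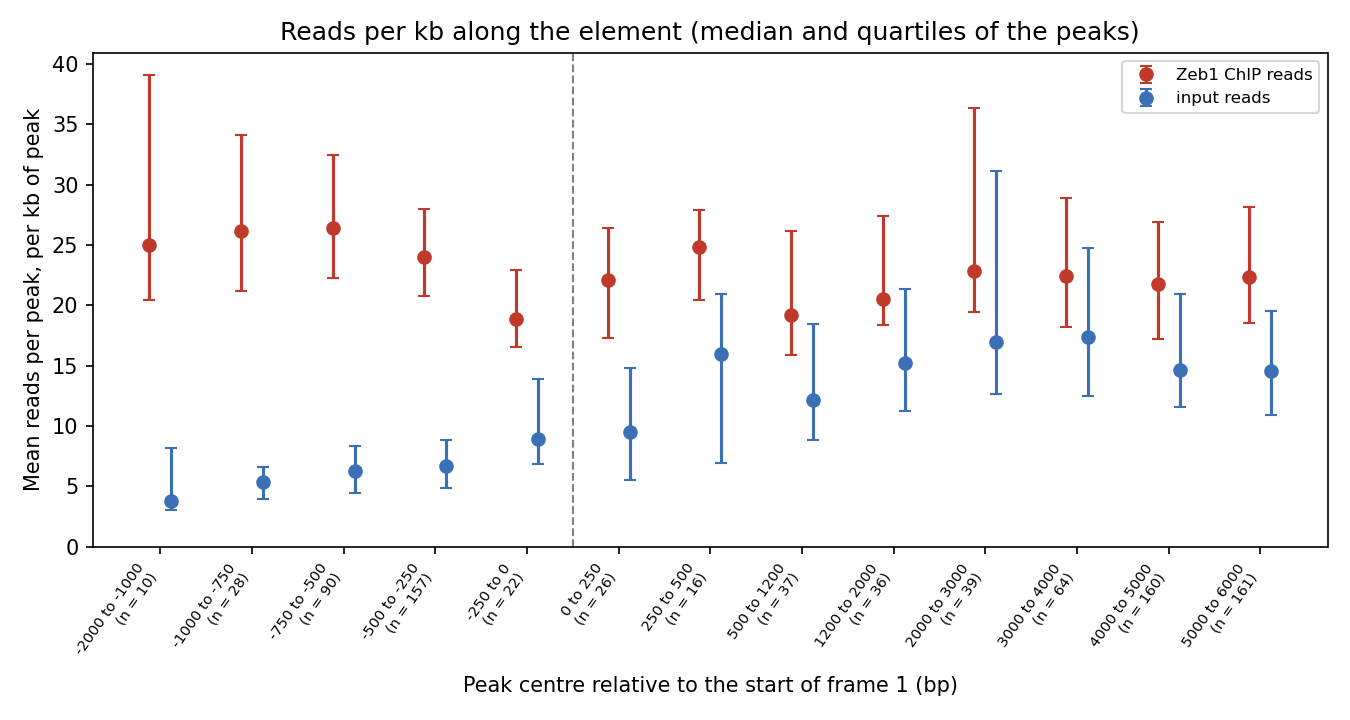
Median treatment and input reads per kb of peak, with quartiles over the peaks of each bin of distance from the start of frame 1, which the dashed line marks. Treatment reads stay between 18.9 and 26.4 per kb, while input reads are 6.67 per kb at 500 to 250 bp before frame 1, highest at 17.4 per kb at 3000 to 4000 bp after its start and 14.5 per kb in the last bin.

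Enrichment is scaled so that equal raw reads give a value near 2. The median of enrichment divided by treatment over input reads was 2.12 in the members and 2.07 in the whole list. A median of 29.8 treatment and 21 input reads, as in the 539 members inside or downstream of the frames, therefore gave enrichments of around 3. These members sat close to the limits of 20 treatment reads and 2-fold enrichment that the authors had set.

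Distal peaks outside retrotransposons, which lay beyond 5 kb of the TSS of their assigned gene and numbered 3876, served for comparison. The members as a whole had lower enrichment than these, at 0.605 times their median of 6.2, with 1.06 times the treatment reads per kb and 1.57 times the input reads per kb. The direction was the same on 20 of 20 chromosomes for enrichment and for input. The 2 kinds of member parted here. Upstream peaks had 1.31 times the enrichment of the distal peaks and 0.915 times their input reads per kb, and were higher in enrichment on 17 of 20 chromosomes. The other members had 0.484 times the enrichment and 2.08 times the input reads. When only peaks with enrichment of at least 5 were compared, the members as a whole turned to 1.20 times the distal peaks.

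L1Md_T and L1Md_A, the other young families with many peaks in the list, showed the same order of enrichment along the element. L1Md_T peaks were upstream of frame 1 in 70.5% of 1203 cases and L1Md_A peaks in 41.0% of 324, against 36.3% of the members. Upstream peaks had median enrichments of 9.76 in L1Md_T, 9.04 in L1Md_A and 8.15 in the members, and the peaks inside or downstream of the frames 3.05, 3 and 3. The 23 L1Md_T and 3 L1Md_A peaks that were not placed, with medians of 7.24 and 9.1, are in neither group. The ratio of upstream to other peaks in treatment reads per kb was 0.939 in L1Md_T, 1.07 in L1Md_A and 1.13 in the members. In input reads per kb it was 0.313, 0.347 and 0.44. The upstream members had 0.835 times the enrichment of upstream L1Md_T peaks with 0.993 times their treatment reads per kb. The place in the element separated enrichment in each of these sets, and no difference between the sets was tested.

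The share of a peak that reads can be assigned to also changed along the element. The authors kept reads that aligned to a single place, so each peak was scored by the percentage of its 50-mers found once in the genome. The median was 44.3% over all members, 53.0% upstream of frame 1, 39.4% in frame 1, 33.2% in frame 2 and 47.2% downstream of it, against 100% in the distal peaks. Aside from the single upstream L1Md_F3 peak, upstream L1Md_F2 peaks were the most unique, with 57.2%, and upstream L1Md_Gf peaks the least, with 41.2%. With 31-mers the median over all members was 25.6% and with 100-mers 78.7%. The member with the highest enrichment had 2.28% unique 50-mers and 2 input reads. The part of read assignment in the values was not tested.

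Tandem repeats marked the upstream peaks. A window of 100 bp that matched itself at a distance of 150 to 250 bp with at least 70% identity was found in 264 of 846 members (31.2%, 28.2 to 34.4%). The share was 72.3% upstream of frame 1 (67.1 to 77.0%), 32% in frame 1, 3.69% in frame 2 and 4.22% downstream of it. The regions of equal length adjacent to the members had one in 3.31% of cases and the distal peaks in 3.79%. The trait was not particular to the members, since upstream L1Md_T peaks had one in 91.2% of cases and upstream L1Md_A peaks in 79%. The most common distances were 214 bp, in 58 members, and 204 bp, in 53, followed by 212 bp, in 34, and 201 bp, in 28. L1Md_F used the shorter period, under 209 bp, in 56 of 63 peaks and L1Md_Gf the longer one in 69 of 72, while L1Md_F2 was mixed, with 72 shorter and 50 longer. The promoters were also richer in CpG, with a median GC content of 47.9% and 20 CpG per kb upstream of frame 1 against 40.9% and 7.06 CpG per kb in the other members. Upstream L1Md_T peaks had medians of 50.8% and 28 CpG per kb, and upstream L1Md_A peaks 49.1% and 22.3 CpG per kb.

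The Zeb1 motif was found in the central 1 kb of 430 of 846 members (50.8%, 47.5 to 54.2%), against 44.3% of all 1 kb tiles of the genome, 55.6% of all other peaks and 60.4% of the distal peaks. This middling share was the sum of unlike parts. The motif was in 69.1% of peaks upstream of frame 1 (63.7 to 74.0%) and 82.7% of those in frame 1, but in 41.9% of those in frame 2 and 18.7% of those downstream of it, with the regions adjacent to the members at 38.9%. The central 1 kb of an upstream peak can reach into frame 1, so its matches need not lie in the promoter. For centres more than 1000 bp before frame 1 the share was 90% (10 peaks). It was 46.4% from 1000 to 750 bp before it and 58.9% from 750 to 500 bp. Closer to frame 1 it was 73.25% from 500 to 250 bp and 100% in the last 250 bp. Copies of a family share their letters, so these intervals cover counting error only and the copies are not independent.

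The motif share of upstream peaks differed between the families by an amount that depended on the stretch counted. Among upstream peaks, 96.0% of L1Md_Gf, 71.2% of L1Md_F2 and 39.7% of L1Md_F peaks had the motif in the central 1 kb. Their median enrichments were 9.34, 7.64 and 9.57, and a relation between motif and enrichment was not tested. Over the whole length of the peak, 100% of upstream L1Md_Gf, 95.4% of L1Md_F2 and 89.7% of L1Md_F peaks had a match. In the central 200 bp the shares were 57.3% for upstream L1Md_Gf and 6.41% for upstream L1Md_F. Upstream L1Md_T peaks had the motif in 83.7% of cases and upstream L1Md_A peaks in 39.1%, the latter close to L1Md_F, while L1Md_Gf lay above and L1Md_F2 below L1Md_T.

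**Figure D4:**
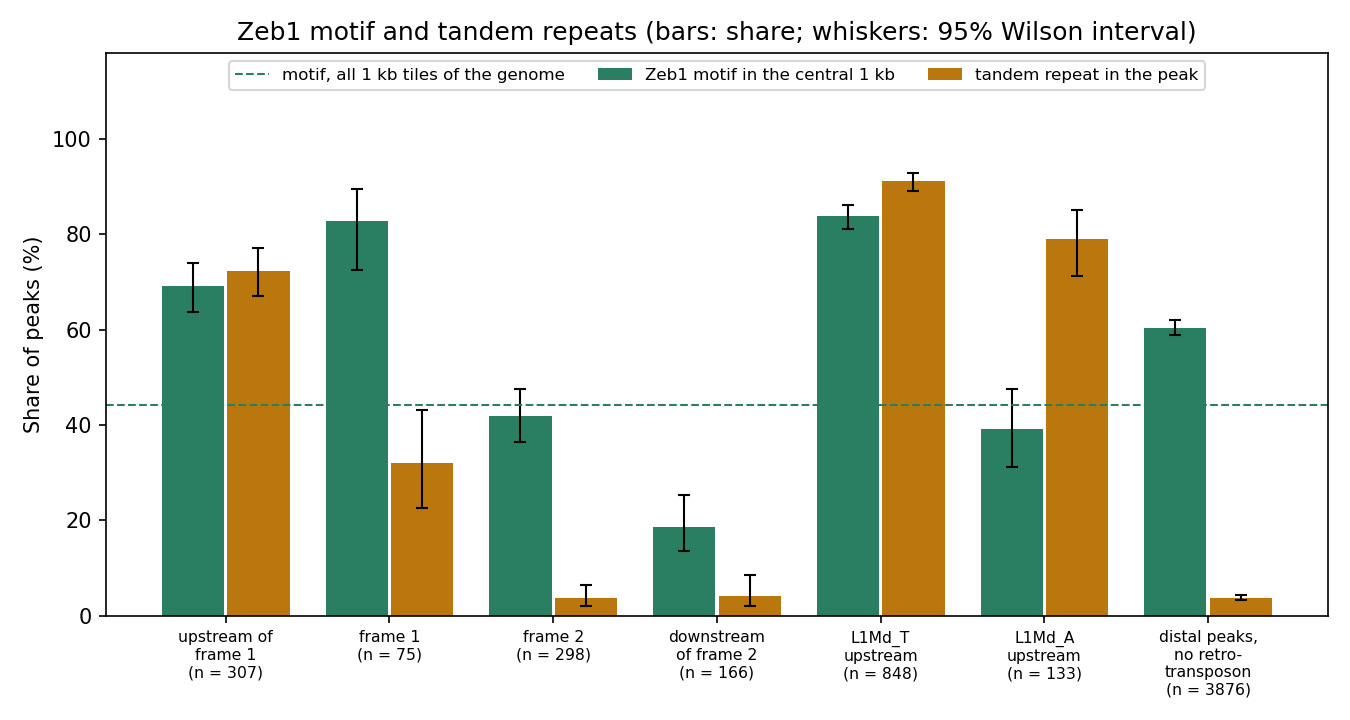
Share of peaks with the Zeb1 motif in the central 1 kb and with a tandem repeat, by part of the element for the 846 members, and for upstream L1Md_T and L1Md_A peaks and distal peaks outside retrotransposons, with 95% Wilson intervals. The dashed line at 44.3% is the motif share of all 1 kb tiles of the genome.

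A larger share of the copies of the promoters than of the 3′ end lay under a peak, although the 3′ end had more copies under a peak by number. Each stretch was chosen for holding the most peak centres of members, and its copies were counted against the same peak list. The shares therefore describe stretches chosen from these data and are not a test. The 500 bp stretch of the first model with the most upstream peak centres had 346 copies of at least 80% identity and length, and 81 of them overlapped a peak (23.4%, 19.3 to 28.2%). The corresponding busiest stretch of the first model from the window of an L1Md_Gf peak, called the L1Md_Gf model, was added after seeing the data. This stretch ran from -884 to -384 bp of frame 1, where that of the first model ran from -626 to -126 bp. It had 1031 copies, and 320 overlapped a peak (31%, 28.3 to 33.9%). The busiest 500 bp at the 3′ end of the first model had 57034 copies, of which 586 overlapped a peak (1.03%). The families could not be kept apart by these promoters. Of the 81 copies under a peak, 62 were in peaks annotated L1Md_T and 11 in members, and of the 320 copies 269 and 40. For the 3′ end, 266 of the 586 were in members and 172 in L1Md_T peaks. Copies in members were 3.18% of all copies of the stretch of the first model, 3.88% for the L1Md_Gf model and 0.466% for the 3′ end.

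**Figure D5:**
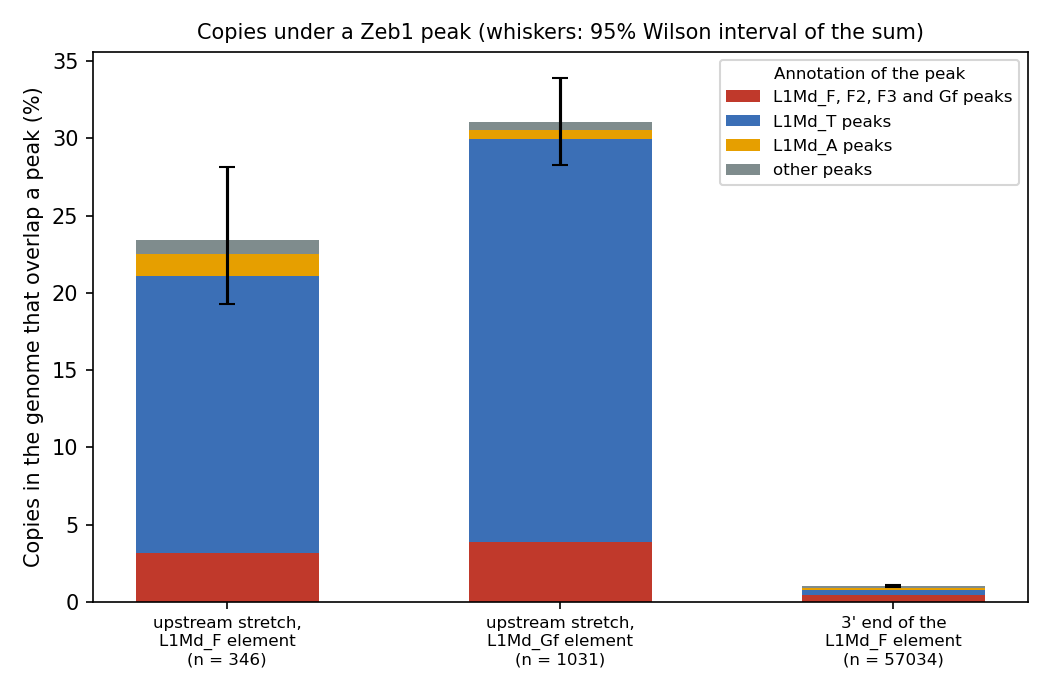
Percentage of copies in the genome that overlap a Zeb1 peak, by the annotation of the peak, with the 95% Wilson interval of the sum. The stretches are those upstream of frame 1 in the first model and in the L1Md_Gf model, and the 3′ end of the first model. Elements are labelled by the family of the peak in whose window they were found, which need not be their own. The promoter stretches reach 23.4% and 31%, and the 3′ end 1.03%.

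Most members were far from the TSS of their assigned gene. Only 12 of 846 (1.42%) were within 5 kb of the TSS of the gene assigned to them, against 61.4% of the whole list, and the median distance to the TSS was 93918 bp. The authors' annotation put 639 members in intergenic sequence, 185 in introns, these 12 in promoters and 3 more at the TSS of a transcript other than that of the assigned gene. In GENCODE, 241 members (28.5%, 25.5 to 31.6%) had their centre in a gene, 161 of them in a protein-coding one. Where the protein-coding gene had a single strand, the element was antisense to it in 101 of 159 members (63.5%, 55.8 to 70.6%), made up of 20 of 35 upstream peaks (57.1%, 40.9 to 72.0%) and 81 of 124 others (65.3%, 56.6 to 73.1%). The share in other LINE-1 peaks was not measured. Upstream peaks had a protein-coding gene over their centre in 11.7% of cases and the other members in 23.2%.

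Chr. X stood out by share. It held 58 members, or 6.86% of them against 1.58% of the whole list, so that members were 21.1% of all Chr. X peaks. On the other chromosomes that share ran from 1.97% on Chr. 17 to 7.91% on Chr. 1. The members on Chr. X were 16 upstream peaks, with a median enrichment of 11.3, and 42 others, with a median of 3.22. Chr. 1 held the most members, with 80, and Chr. 6 held the most upstream peaks, with 41.

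The 5 members with the highest enrichment all lay upstream of frame 1 and had 1 or 2 input reads. The first, at chr9:114281051-114282500 with an enrichment of 55.4 from 55.5 treatment and 2 input reads, was assigned to Bcl2a1c, a relative of the anti-apoptotic Bcl2 genes, at 48360 bp. It lay in an intron of the noncoding transcript 4921528I07Rik, to which the element is antisense. The L1Md_F peak at chr8:29347601-29349000, assigned to the netrin receptor gene Unc5d, had 37.4 treatment reads and an enrichment of 42.1. On Chr. X, the L1Md_F2 peak at chrX:80829751-80831000, assigned to Tmem47, had an enrichment of 41.8 from 21.5 treatment reads and 1 input read, and the L1Md_Gf peak at chrX:30016601-30017700, assigned to Gm10058, had an enrichment of 39.6. The fifth, an L1Md_F2 peak 20581 bp from Crp, the gene for C-reactive protein, had an enrichment of 34.2. With so few input reads, a change of 1 read would move these values strongly.

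The members with the most treatment reads were of both kinds. The L1Md_F2 peak near Rgag1 on Chr. X had 175.6 treatment reads and 80 input reads, with an enrichment of 5. The L1Md_F2 peak near Acnat2, of an acyltransferase family, had 136 treatment reads over 13.7 input reads and an enrichment of 22.1. Both were upstream of frame 1. The peaks near the cytochrome P450 gene Cyp2c67 (125 reads), Tmem161b (123 reads) and the co-repressor gene Tle1 (121 reads) were in the frames, had 88.5 to 116 input reads and reached enrichments of 2.3 to 3.35. In these 5 peaks the read number and the enrichment did not have the same order. Over the 307 upstream peaks rho between enrichment and treatment reads per kb was 0.35, and over the 539 other members -0.03.

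The 5 longest members were L1Md_F2 peaks of 3650 to 7850 bp in frame 1 or frame 2. They were assigned to Naip6, a sensor of the innate immune system, Vmn2r23, a vomeronasal receptor, the zinc finger gene Zfp936, the serotonin receptor gene Htr2a and Mdfic. Their enrichments lay between 2.23 and 2.95. The longest, at chr13:100287001-100294850 in an intron of Naip6, had 106.5 treatment and 107 input reads. It spanned the printed copies of the late match in frame 1 and of the match in frame 2.

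Of the 12 members within 5 kb of a TSS, 5 were upstream peaks. The highest enrichments were 11.5 near Olfr1318 and 9.36 near Olfr1257, which are olfactory receptor genes on Chr. 2, at 4552 and 4128 bp from the TSS. Mir8099-1, with 5.1 at 2787 bp, was the next. Olfr675 and 2610020H08Rik, with 4.55 and 4.5, had peaks downstream of frame 2 at 2084 and 2063 bp.

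In all, 13 genes had 3 or more members assigned, and 3 of these had 4. These were Tsn, the gene of translin, Brinp1 and Rprl1, with 2, 1 and 1 upstream peaks. Around Tsn the 2 upstream peaks had enrichments of 15.2 and 12.8 and those in or after frame 2 had 4.2 and 2.9. At Brinp1 the 4 values were alike, from 6.2 to 7.71, although the peaks lay in 3 parts of the element. At Rprl1 they ran from 2.69 to 3.44, and the upstream peak, at 3.35, was below a frame 1 peak. Tmem47 had 3 members with enrichments of 41.8, 18.6 and 3.15, of which the first 2 were upstream peaks and the last was downstream of frame 2. Sorcs1, of a sorting receptor family, had upstream peaks at 15.8 and 13.6 and a frame 2 peak at 3.7, and the sulfotransferase gene Sult2a3 upstream peaks at 12.8 and 10.3 and a frame 2 peak at 2.84. A530053G22Rik had 1 upstream peak, at 11.2, and 2 others at 2.8 and 3.28. The 6 remaining genes, 1700026F02Rik, Cblb, Cdh6, H2afb3, Mir466g and Zfp936, had values between 2.23 and 5.15. At 1700026F02Rik the upstream peak, at 4.5, was below a frame 1 peak, at 5.15. Members sharing a gene were up to 1328136 bp away from it and share family sequence, so that they are not repeats of one measurement.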

How the data were processed

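The authors trimmed Ion Torrent reads, drew equal numbers of reads for each of the 3 Zeb1 ChIP libraries and the input, kept unique alignments to mm10 (STAR 2.4.2a), removed duplicates (Picard 1.136), found peaks of each ChIP library against the input and unified those present in at least 2 of the 3. Peaks were annotated with HOMER 4.7. The deposited read columns are a signal, the authors' mean number of reads per unified peak. The deposited enrichment is a ratio of treatment to input, normalized for mapped reads and averaged by the authors. The deposited p-value is 0 for all 17435 peaks and ranked nothing. Averaging hides the spread between libraries.

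Members and lists were chosen with earlier results of these data known. Sequence came from GRCm38.p6, the assembly of mm10, and genes from GENCODE vM21. No peak ended beyond its chromosome. Elements were placed with blastn 2.17.0 (at least 70% identity over 100 bp). Model elements that tied on the length of the second frame were ranked by the first frame and then by enrichment, a choice made after seeing the data. Shares have 95% Wilson intervals, for counting error alone. Functions were tested on simulated sequence. The genes named are those assigned to the 5 members with the highest enrichment, the 5 with the most treatment reads and the 5 longest, the 5 with the highest enrichment within 5 kb of a TSS, and genes with 3 or more members. Gm15091, Vmn2r82, Lingo2 and Bsph1 were named after their values were seen. Sequences and counts of shared stretches were taken from 815 members, since those of 1 chromosome are not reported here. Deposited distances with a positive sign lay downstream of the TSS, and distances are printed without sign. Python 3.11.15, NumPy 2.4.6, pandas 2.3.3, SciPy 1.17.1, pysam 0.24.0 and numba 0.67.0 were used.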

Additional observations from a re-analysis of the deposited data

How the results depend on the processing

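No paired analysis was possible because the list has no value per library, and for the same reason no ChIP library could be left out in turn. All alternatives that were listed were run. Of 846 members, 308 remained at an enrichment of at least 5 and 277 without L1Md_F2. Their median enrichment over that of the distal peaks, 0.605, was 0.975 against L1Md_A peaks and reversed to 1.20 at an enrichment of at least 5 in both sets, where low peaks are removed from each. The share with the motif, 50.8%, was 67.3% in whole peaks, 17.8% in the central 200 bp, 28.3% on the forward strand alone and 58.5% for the core CACCTG. Tandem repeats, 31.2%, were found in 35.1% at 60% identity and 27.0% at 80%. The median of unique 50-mers, 44.3%, was 25.6% for 31-mers and 78.7% for 100-mers. The authors' classes left 24.5% of members outside intergenic sequence, with promoters and gene ends included, in place of 28.5% in genes. The next alternatives, and the contrast of upstream with other members itself, were chosen after seeing the data. The panel of models moved the share centred before frame 2 from 28.4 to 45.2%, the L1Md_Gf model, with a stretch at another position, moved the share of copies under a peak from 23.4 to 31%, and an enrichment of at least 5 moved the ratio of upstream to other members from 2.72 to 1.56. With no replicate spread, a ratio or median was taken as unchanged within 1.5 times its value. By that measure, and by the interval for shares, the other alternatives did not move a result. Without each family in turn and without Chr. X, the ratio of upstream to other members stayed between 2.58 and 3.11. The reads behind a member, a median of 32 treatment and 16 input reads, limit the precision of any single enrichment.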
